A study of Homo sapiens with 29 samples.

Results

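The chromatin around FOXA1 was described in 29 ATAC-seq libraries of 22Rv1 cells, an established line from a human prostate carcinoma. ATAC-seq uses a transposase that cuts open chromatin, and a peak is a stretch with more cut fragments than its local background. The locus was taken as the window on chromosome 14 from 37650000 to 38350000 of build hg19, which spans 700 kb. FOXA1 lies in it at 38058757 to 38064325 on the minus strand, so that downstream of the gene means lower coordinates. Peaks of all 29 lists that overlapped the window were merged over libraries, which gave 47 regions of 166696 in the whole genome. They are numbered from region 01 to region 47 in the order of their coordinates. Membership rests on position alone, not on how a region behaved in any group.

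Of the libraries, 15 came from parental cells, with 3 in each of 5 groups. The groups were DMSO at 0.1%, WX-02-23 at 20 µM, its stereoisomer WX-02-43 at 20 µM, and pladienolide B (PladB) at 10 nM and at 100 nM. The engineered cells gave 14 libraries in 7 groups of 2, and all of them stably expressed Y36C-PHF5A. On top of it they carried a doxycycline (Dox)-inducible construct for WT-FOXA1 or for C258A-FOXA1. With Dox, each line received DMSO, WX-02-23 at 20 µM or PladB at 100 nM. A further DMSO group without Dox came from WT-FOXA1 cells only. Every treatment lasted 3 h. WX-02-23 is a stereoprobe that reacts with a cysteine of FOXA1, the one that C258A-FOXA1 lacks. PladB binds the splicing factor SF3B1, and Y36C-PHF5A lowers the sensitivity of the spliceosome to such ligands. Both engineered lines keep the endogenous FOXA1 gene, and no C258A-FOXA1 library without Dox was analysed here, so induced FOXA1 and Dox itself cannot be told apart. According to the peak names, the parental and the engineered lists were processed in separate folders, so cell line and batch cannot be told apart either. The labels do not say whether replicates were separate cultures, and the p-values below measure only the spread between these libraries.

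FOXA1 is a forkhead transcription factor of the luminal prostate epithelium. It is called a pioneer factor because it binds its motif in closed chromatin and opens it for other factors, among them the androgen receptor. Its own gene is controlled by enhancers spread over the surrounding chromosome, several of them downstream within introns of MIPOL1, and FOXA1 protein itself binds at many of them. In RefSeq, MIPOL1 is the neighbour on the downstream side and TTC6 the neighbour on the upstream side, and both are transcribed from the opposite strand. Which of the regions lie inside these genes was not analysed here.

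The promoter sequence is shown because the region that spans the start of FOXA1 was open in every library and because forkhead letters are what FOXA1 protein recognises. The sequence is that of RefSeq (GRCh38.p14, minus strand), the 250 bases before the annotated start, with the one forkhead match in capitals.

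FOXA1 promoter: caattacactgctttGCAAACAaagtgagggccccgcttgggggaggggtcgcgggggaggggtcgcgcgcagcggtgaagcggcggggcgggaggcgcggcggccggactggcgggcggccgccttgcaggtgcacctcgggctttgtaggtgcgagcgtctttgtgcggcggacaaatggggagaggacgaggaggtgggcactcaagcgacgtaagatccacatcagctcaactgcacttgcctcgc

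Both strands were searched for fixed letters. The forkhead letters TGTTTGC occurred once, on the reverse strand, 235 bases before the start, and 3.23% of 35116 RefSeq promoters of the same length held them. The other forkhead spellings TGTTTAC and TATTTAC were absent from this window, as they were from all but 2.98% and 2.39% of promoters. The GC box GGGCGG occurred 2 times, at 164 and 136 bases before the start, as it did at least once in 42.6% of promoters. CCAAT (in 32.01% of promoters), TATAAA (in 10.7%) and the androgen receptor core TGTTCT (in 12.4%) did not occur. The window had a GC content of 67.2%, against a median of 58%, and held 26 CpG dinucleotides, against a median of 11. A match of letters is a description of the sequence and not evidence of binding. The RefSeq gene is 5698 bp long and the hg19 gene used here 5569 bp, so the annotated starts may differ between the builds.

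The lists give no read totals. Each peak's read number at its summit and its local background were recovered from the authors' fold and p-values, and the genome background, a relative measure of depth, ran from 0.546 to 1.502 reads per base across libraries. The lowest summit called anywhere in a list had 5 to 8 reads, and a region below that was not detectable at this depth. Parental lists held 82538 to 98193 peaks and engineered lists 62832 to 92658. In the FOXA1 window a library held 18 to 26 regions, which covered 1.11% to 1.69% of it.

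More open regions lay downstream than upstream of the gene, but the window also reaches farther downstream. It runs from 37650000 to the gene at 38058757 on that side, and from 38064325 to 38350000 upstream. The counts below were not scaled to these lengths. Of the 47 regions, 30 lay downstream beyond the gene, 3 at the gene and its promoter, and 14 upstream. More than 50 kb downstream there were 25 regions, of which 5 were held by all 29 libraries. The nearer downstream zone had 5 regions, 3 of them in every library. The upstream side had 2 regions within 50 kb and 12 beyond, with 1 region of each zone in every library.

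By presence, the regions fell into 5 classes. All 29 libraries held 11 regions, 23.4% of the locus, and the same class made up 21.5% of all regions in the genome. Exactly 1 library held 9 regions (19.1%, against 16.9% in the genome). Of the remaining 27, 13 were held by some libraries of both origins, 6 by 2 to 8 parental libraries alone and 8 by 2 to 12 engineered libraries alone. No region was held by all 15 parental and no engineered library, or by all 14 engineered and no parental library. The classes also differed in size: the regions in every library were 504 to 1673 bp wide (median 823), and those in 1 library were 150 to 196 bp wide (median 155).

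**Figure D1:**
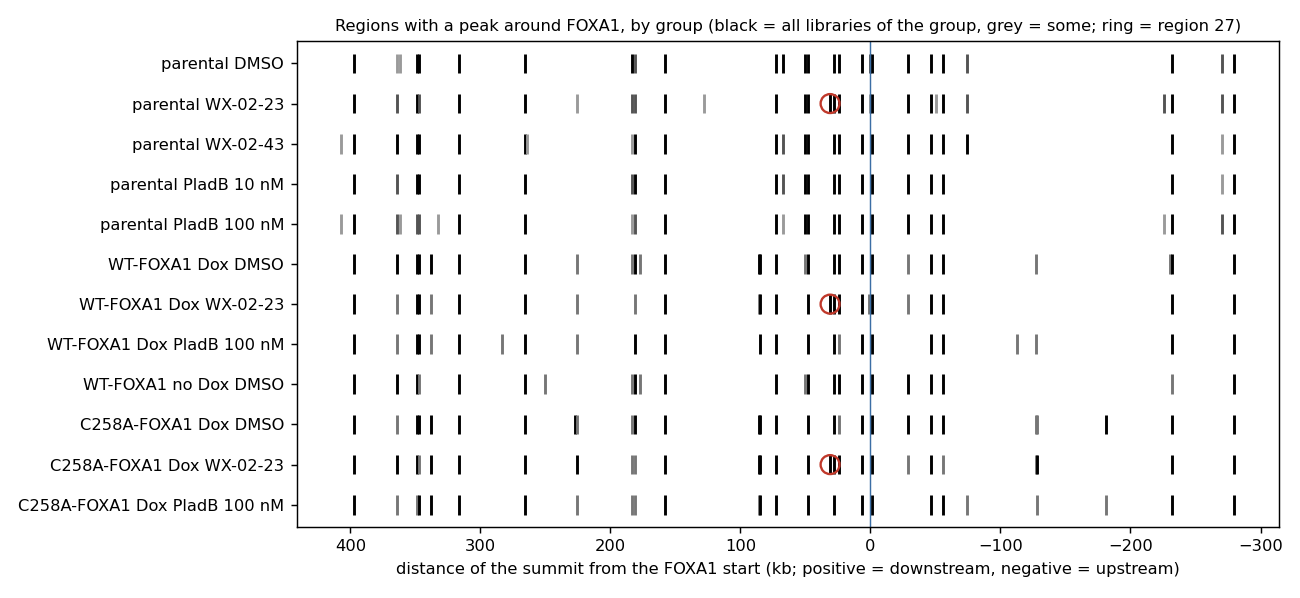
Each tick is one of the 47 regions, at the median distance of its summits from the FOXA1 start (horizontal axis, kb, positive downstream), in the 12 groups (rows). Black ticks are regions held by all libraries of a group and grey ticks by some of them; the blue line marks the FOXA1 start, and the rings mark region 27, which is present in the 3 WX-02-23 rows and in no other row.

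Region 33 (38064111 to 38065783, 1673 bp), which spans the start of FOXA1 and is called its promoter here, was the deepest site of the locus. Its strongest peak had more summit reads than any other region of the window in 29 of 29 libraries. The promoter values below are those of this peak, whose summit lay 991 to 1118 bases upstream of the start. By the authors' p-value the promoter took place 1 to 4 among the locus regions of each list. Its mean percentile within the whole list was 89.6 ± 2.2 (SD, n = 29). The fold enrichments quoted here and below are the authors' values over the local background and serve only to describe a peak within its list. In parental lists the promoter fold ran from 6.04 to 8.08 (median 6.65), and its summit held 78 to 110 reads (median 98) over a local background of 9.53 to 16.6 reads. In engineered lists the fold ran from 6.83 to 8.97 (median 7.89), with 68 to 109 reads (median 83.5) over 8.09 to 12.2. The promoter thus had a lower fold than several distant regions while it had the most reads and a high local background.

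The promoter was not one even block. In 23 lists it was split into 2 peaks, in 5 into 3, and in WT-FOXA1 Dox DMSO replicate 2 it was 1 peak. The strongest summit lay 991 to 1118 bases upstream of the start (median 1057) in every list, upstream of the stretch whose sequence is shown. The additional summits lay 17 to 572 bases upstream of the start (median 201), at a median of 99 bases in parental and 235 in engineered lists. They held fewer reads than the strongest summit. In parental DMSO replicates 1, 2 and 3 they lay 94, 219 and 150 bases upstream of the start. Their fold there was 3.125, 3.33 and 3.94, with 46, 53 and 58 reads, against 88, 110 and 90 reads at the strongest summit. The peaks reached into the gene's first bases in 15 of 15 parental libraries and in 7 of 14 engineered ones.

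By group, the fold of the strongest promoter peak was as follows. Parental DMSO libraries had 6.04, 6.87 and 6.17, WX-02-23 libraries 6.32, 6.50 and 6.65, and WX-02-43 libraries 6.44, 6.24 and 6.25. PladB at 10 nM gave 6.95, 6.68 and 7.07, and at 100 nM 7.21, 6.87 and 8.08. By fold, the libraries of both stereoisomers thus lay within the DMSO range, and the PladB libraries lay at its upper end or above it. In the WT-FOXA1 line the fold was 6.83 and 7.86 with Dox and DMSO, 6.86 and 7.93 with WX-02-23, 7.96 and 7.65 with PladB, and 8.48 and 7.43 without Dox. The C258A-FOXA1 line had 8.18 and 7.85 with DMSO, 8.23 and 6.94 with WX-02-23, and 8.59 and 8.97 with PladB. Ordered by mean, the 12 groups ran from 8.78 ± 0.27 (SD, n = 2) in C258A-FOXA1 PladB to 6.31 ± 0.11 (SD, n = 3) in parental WX-02-43. Of the 11 pairs of neighbours in that order, 9 overlapped in their ranges. The pairs that did not were C258A-FOXA1 PladB above C258A-FOXA1 DMSO, and parental PladB at 10 nM above parental WX-02-23. Summit reads went the other way with PladB at 100 nM in parental and C258A-FOXA1 cells. They were 78 to 85 against 88 to 110 with DMSO in the former, and 77 and 81 against 93 and 94 in the latter. The WT-FOXA1 line had 84 and 100 against 82 and 97, and parental PladB at 10 nM had 87 to 98. In parental cells the local background was 9.53 to 10.9 reads with PladB at 100 nM and 13.7 to 15.15 with DMSO. Since lists differ in depth, the order by fold was not tested.

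**Figure D2:**
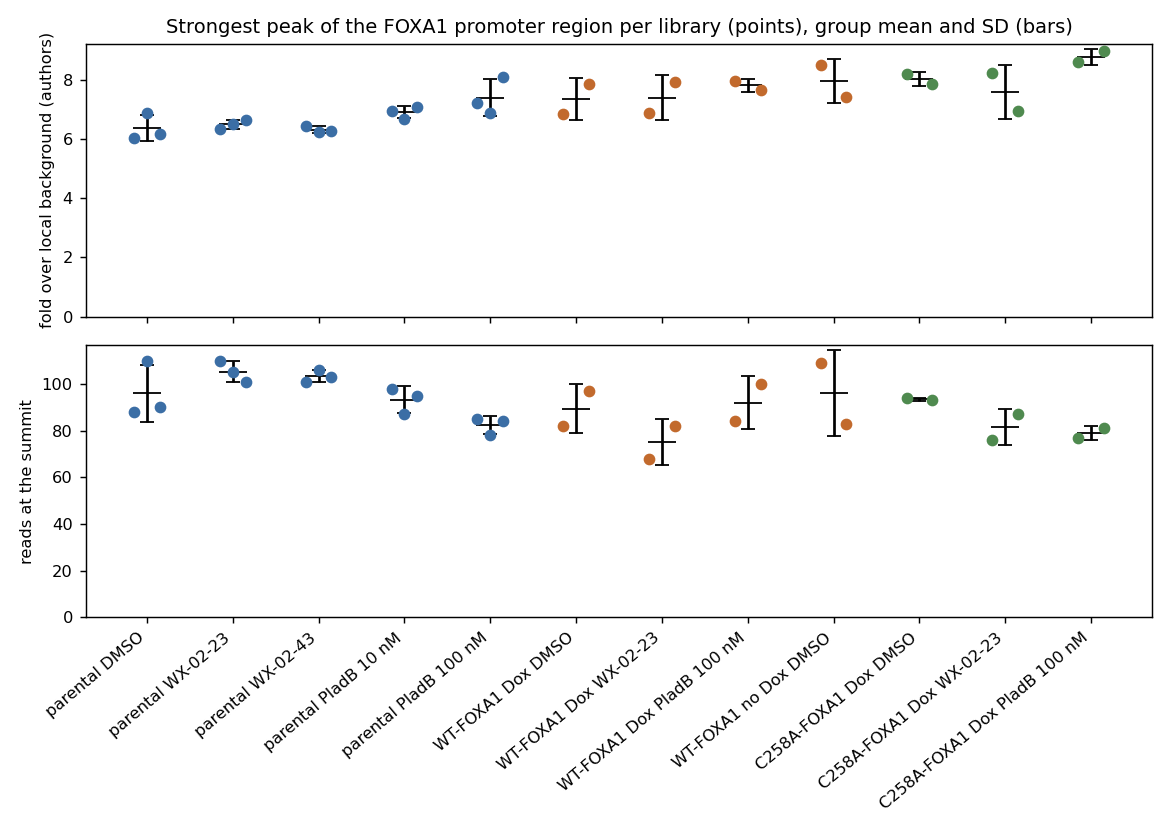
Points are single libraries, and bars give the group mean and SD for the strongest peak of the FOXA1 promoter region: the authors' fold over local background (upper panel) and reads at the summit (lower panel), in the 12 groups (horizontal axis). Fold lies between 6.04 and 8.97 and reads between 68 and 110, and most neighbouring groups overlap.

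Inside the transcribed gene little was called. Of its 5569 bp, 590 lay under a peak of any library and 4979 under none, and the stretch from 38058757 to 38063423 (4667 bp) had no peak in any of the 29 lists. Region 31 (38063424 to 38063580) was called in WT-FOXA1 Dox WX-02-23 replicate 2 alone, with a fold of 3.32 and 34 reads over a local background of 9.56. Region 32 (38063742 to 38063959) was called in parental DMSO replicates 1 and 3, with a fold of 2.60 and 2.46, and in parental WX-02-23 replicate 1, with 2.26. A peak over FOXA1 exons in an engineered library can come from the inducible construct, which would map to the same bases. Region 31 is the only such peak beyond the promoter region, and 11 of the 12 Dox libraries had none. Which of these bases are exonic was not analysed here.

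The strongest distant regions were open in every library, whatever the treatment. Region 02 (37666640 to 37667730, 396.6 kb downstream of the start) ranked first in the locus by p-value in 21 lists and among the first 3 in 27. Its mean percentile within the list was 92.5 ± 3.1 (SD, n = 29). In parental lists it held 55 to 89 summit reads (median 73) with a fold of 11.8 to 15.1, and in engineered lists 40 to 73 reads (median 53.5) with a fold of 12.4 to 17.5. Region 09 (37747790 to 37748673, 315.7 kb downstream) ranked first in 5 further lists, at a mean percentile of 89.7 ± 3.2 (SD, n = 29). It held 31 to 65 reads (median 52) in parental and 46 to 69 (median 62) in engineered lists. The promoter was first in the other 3 lists, so that one of these 3 regions led the locus in all 29.

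Region 26 (38015857 to 38016679, 47.6 kb downstream) and region 19 (37905458 to 37906220, 158.1 kb downstream) followed, with mean percentiles of 84.6 ± 5.2 and 82.9 ± 4.9 (SD, n = 29 each). At region 26 the summit held 35 to 68 reads in parental and 26 to 45 in engineered lists. At region 19 it held 32 to 49 and 21 to 57 reads. The fold of region 26 lay between 10.5 and 16.4 and that of region 19 between 10.3 and 17.5, so both ranges overlapped those of regions 02 and 09.

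The other 6 regions held by every library had lower percentiles, from 78.4 for region 47 (279.4 kb upstream) to 62.2 for region 11 (265.3 kb downstream). Between them came region 23 (72.3 kb downstream), region 35 (46.0 kb upstream), region 28 (27.6 kb downstream) and region 30. Region 30 (38057383 to 38058446) ended 311 bases past the end of FOXA1, 5.9 kb from the start. It had 26 to 52 reads in parental and 30 to 49 in engineered lists, and a fold of 5.25 to 7.74. Its fold, like that of the promoter, was among the lower ones of the 11 regions.

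**Figure D3:**
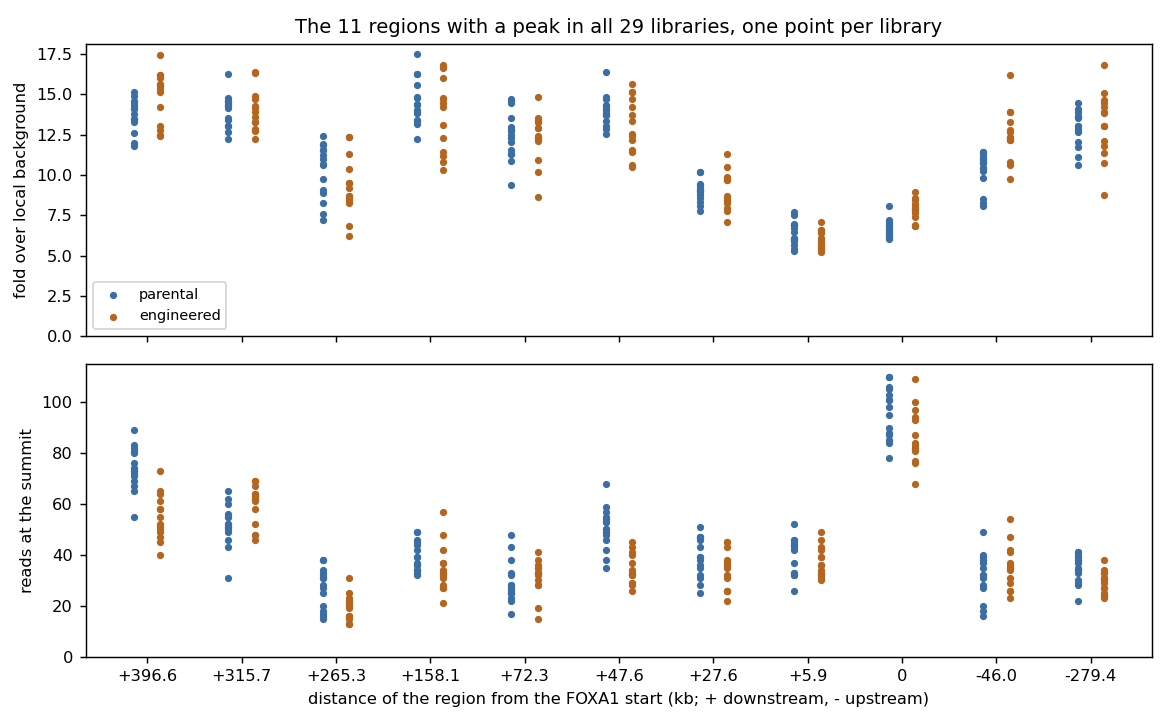
Each point is a library: the authors' fold over local background (upper panel) and reads at the summit (lower panel) at the 11 regions held by all 29 libraries, ordered by distance from the FOXA1 start (horizontal axis, kb), for parental (blue) and engineered (orange) cells. The promoter, at 0 and given by its strongest peak, has the most reads (68 to 110) and one of the lowest fold ranges. Parental and engineered points overlap at every region.

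The question of the treatments was whether any region of the locus opened or closed. Gained means a peak in every treated and in no control library, and lost means the opposite. Both were counted among the regions that any library of the 2 groups held.

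WX-02-23 gained 1 region, and it was the same region in all 3 lines. Region 27 (38033143 to 38033452, 310 bp, 30.9 kb downstream of the start) was held by 3 of 3 parental WX-02-23 libraries, 2 of 2 in the WT-FOXA1 line and 2 of 2 in the C258A-FOXA1 line. None of the other 22 libraries held it, neither those with DMSO, WX-02-43 or PladB nor those without Dox. It was therefore present with WX-02-23 whether the inducible FOXA1 carried the reactive cysteine or not, in cells that also carry endogenous FOXA1.

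In parental WX-02-23 replicates 1, 2 and 3, region 27 had 21, 13 and 24 summit reads and a fold of 5.19, 3.74 and 6.30. In the WT-FOXA1 line the 2 libraries had 20 and 14 reads with a fold of 6.52 and 4.34. In the C258A-FOXA1 line they had 10 and 18 reads with a fold of 3.57 and 5.09. The peaks were small. Their percentile within the whole list ran from 0.215 in C258A-FOXA1 replicate 1 to 50.8 in WT-FOXA1 replicate 1, and their −log10 q from 2.80 to 12.2, where the lists end at 2.00. The summits of the 7 libraries lay within 30995 to 31071 bases of the start.

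Presence of a peak was also tested in all regions of the genome, with the 7 WX-02-23 libraries against the 20 other libraries of the same lines (Dox given in the engineered lines) and treatment labels permuted within each line. This test was chosen after the peaks of region 27 had been seen. Its p-values for that region therefore describe the pattern and are not independent support for it. The exact two-sided permutation p for region 27 was 9.77e-06, the smallest the design allows, and 0.0396 after Benjamini-Hochberg adjustment over 129752 regions. By this test 0.017% of regions were higher with WX-02-23 (22 regions) and 0.00771% lower (10 regions). In the FOXA1 locus 1 of 34 tested regions was higher and none was lower at an adjusted p under 0.05, and no further one had an unadjusted p under 0.05. The same test of PladB at 100 nM called 0% of regions in either direction, and none of the 34 locus regions had an unadjusted p under 0.05. Its controls included the libraries with PladB at 10 nM and with WX-02-23, so it is not a comparison with DMSO.

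The call depended on the processing and on the number of libraries compared. The adjusted p (exact permutation test) was 0.250 when only peaks with a −log10 q of at least 5 counted, 0.384 with all lists at 1 length, 0.167 when a peak had to cover 50% of the region, and 1 against DMSO libraries alone. It ranged from 0.0448 to 0.190 when 1 library was left out, and exceeded 0.05 without any of the 7 WX-02-23 libraries or any of the 8 other engineered libraries with Dox, and stayed under 0.05 without any of the 12 other parental ones.

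Depth was set beside this result. At the local background of the nearest region held by every library (region 28, 2.5 kb away), a call was estimated to take 9 to 14 summit reads (median 11) in the 22 libraries without the peak. In the 7 libraries with it, the estimate was 11 to 14 (median 13) and 10 to 24 were seen. The estimate is not a detection limit, since C258A-FOXA1 WX-02-23 replicate 1 was called at 10 reads where it gave 11. The part of depth in the pattern of region 27 was not tested.

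**Figure D4:**
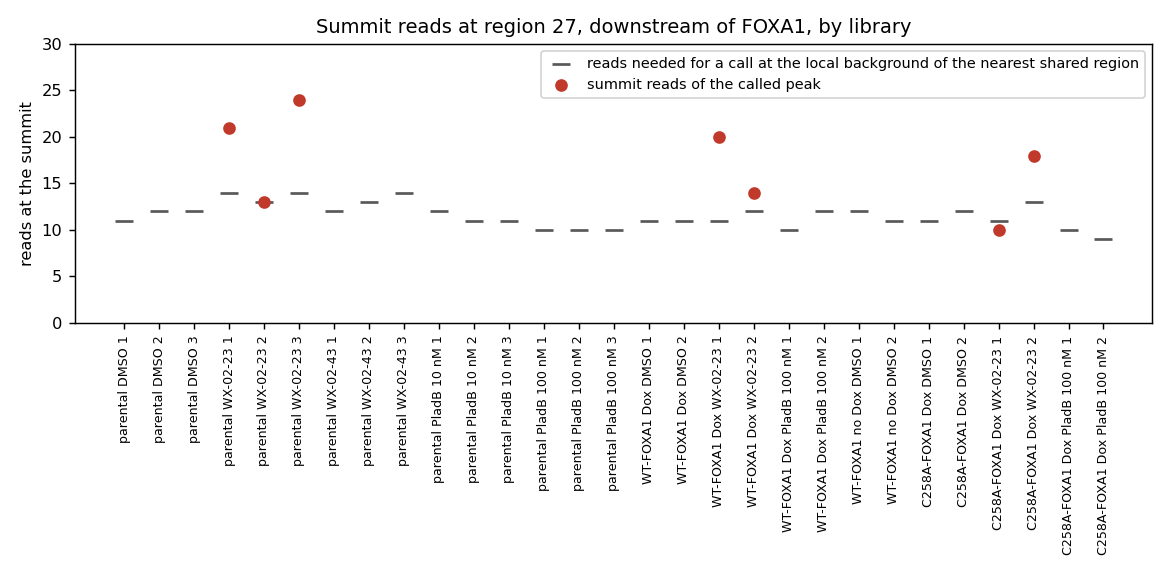
Reads at the summit of region 27 in the 7 libraries that held it (red points), and, in all 29 libraries, the reads estimated to be needed for a call at the local background of the nearest region held by all libraries (bars); the vertical axis counts reads. Red points occur in the 3 WX-02-23 groups and in no other, and range from 10 to 24 reads, while the estimates run from 9 to 14.

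Parental libraries with WX-02-23 gained 1 and lost 1 of 31 regions relative to DMSO, where 1.82% and 1.18% of regions in the genome were gained and lost. The lost one was region 24 (37996649 to 37996905, 67.4 kb downstream). Its DMSO peaks had 12, 13 and 10 reads and a fold of 6.74, 6.32 and 5.73, and none of the 3 WX-02-23 libraries held it. It was also held by 2 of 3 WX-02-43, 2 of 3 PladB 10 nM and 1 of 3 PladB 100 nM libraries, and by no engineered library. The exact within-line permutation p of region 24 was 0.0769 (0.830 adjusted). That is the smallest possible for a region held by 8 parental and no engineered libraries, so this test could not call the loss. Its controls were all other libraries of the line, those with WX-02-43 and PladB included.

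The stereoisomers were compared at 20 µM and 3 h. Relative to DMSO, WX-02-43 gained 0 and lost 0 of 28 regions, against 0.34% and 0.369% of regions in the genome. WX-02-23 against WX-02-43 gave 1 gained region of 32, region 27, and 0 lost ones, against 1.6% and 1.07% in the genome. The number of locus regions per library was 22, 24 and 24 with DMSO, 23, 24 and 25 with WX-02-23, and 21, 25 and 23 with WX-02-43. The difference between the stereoisomers was 1 region (SE 1.29), and the differences between single libraries ran from -2 to 4. Its exact two-sided permutation p was 0.7 (0.875 adjusted over the 5 parental comparisons), and 0.1 is the smallest that 3 against 3 libraries allow. The range from -2 to 4 is that of single pairs of libraries and not an interval for the difference of the means. With 3 against 3 libraries, the comparison excluded neither no difference nor one of a few regions in either direction. The difference from DMSO was 0.667 (SE 0.882) for WX-02-23 and -0.333 (SE 1.33) for WX-02-43, with an exact permutation p of 0.7 and 1. These small differences changed sign with the processing: with all lists of a comparison at 1 length they were -0.333 and 0.333, and -1.33 between the stereoisomers.

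PladB in parental cells gave no gained or lost region, of 26 at 10 nM and 29 at 100 nM. In the genome 0.408% of regions were gained and 0.556% lost at 10 nM, and 0.187% and 1.68% at 100 nM. Libraries held 23, 22 and 19 locus regions at 10 nM and 21, 23 and 20 at 100 nM. Both differences from DMSO were -2 regions, with an SE of 1.37 and 1.11 and an exact permutation p of 0.3 and 0.2 (0.75 adjusted for both). With all lists of a comparison at 1 length, the difference was -2 at 10 nM and -0.333 at 100 nM. Per 10000 peaks it was -0.172 regions at 10 nM and 0.0471 at 100 nM. All ranges of the number of regions overlapped that of DMSO. The 100 nM libraries were also the shallowest parental ones, with a background of 0.662 to 0.734 reads per base against 0.881 to 1.002 in DMSO, and the part of depth in this difference was not tested.

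**Figure D5:**
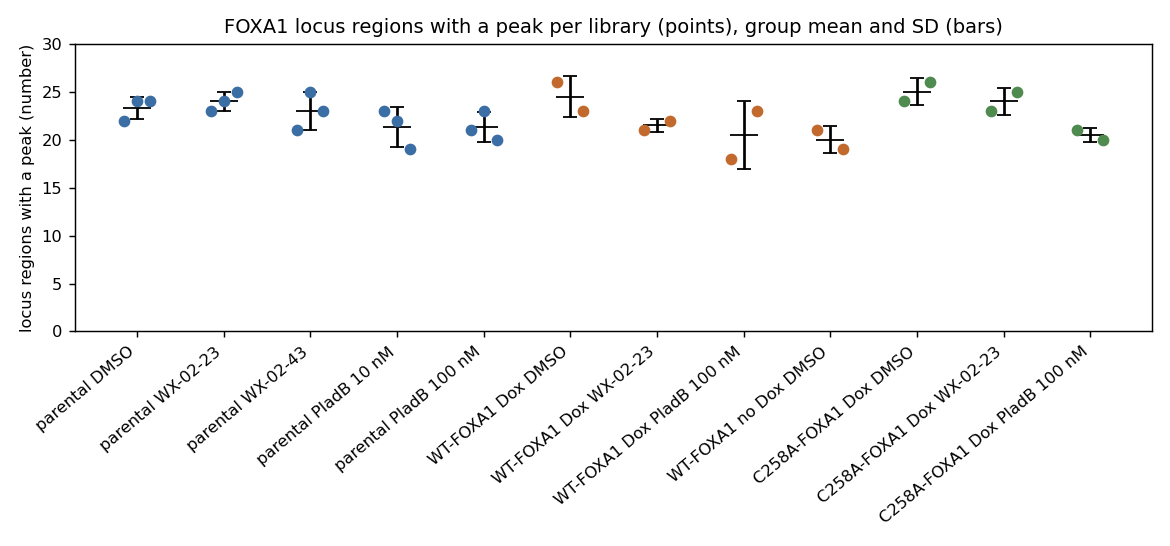
Points give the number of FOXA1 locus regions with a peak in each library (vertical axis), and bars the mean and SD of each of the 12 groups. All libraries lie between 18 and 26 regions, and the parental groups overlap.

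Libraries of the WT-FOXA1 line held more of the locus with Dox than without: 26 and 23 regions with Dox, and 21 and 19 without it. The difference was 4.5 regions (SE 1.80), and the exact permutation p was 0.333, the smallest that 2 against 2 libraries allow. Dox gained 3 of 29 regions (10.3%) and lost none, where 13.2% and 1.1% of regions in the genome were gained and lost. The share of gained regions in the locus was thus near that of the genome. The lists with Dox were also longer (85009 and 88140 peaks against 67195 and 69814), and per 10000 peaks the difference was -0.0901 regions. The part of list length and depth in it was not tested.

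The 3 regions gained with Dox were regions 07, 21 and 22, all downstream of the gene and in no parental library. Region 22 (37979073 to 37979604, 84.7 kb downstream) was held by all 12 libraries with Dox, by neither without, and by none of the 15 parental ones. In the genome, 1.46% of regions had this pattern. Its fold with DMSO was 7.67 and 9.55 in the WT-FOXA1 line and 10.8 and 10.2 in the C258A-FOXA1 line. Under WX-02-23 it was 6.31 and 6.81 in the former and 9.55 and 10.4 in the latter, and PladB 8.22 and 8.77, and 12.2 and 10.8. Region 22 thus stayed open with WX-02-23 in both lines, at 11 and 15 reads in the WT-FOXA1 line and 19 and 28 in the C258A-FOXA1 line, against 16 and 19, and 27 and 27, with DMSO.

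Region 21 (37978410 to 37979010), only 62 bases away from region 22, was held less regularly. Both DMSO libraries with Dox of either line held it, with 12 and 9 reads in the WT-FOXA1 line and 14 and 22 in the C258A-FOXA1 line. Under WX-02-23, 1 of 2 WT-FOXA1 and 2 of 2 C258A-FOXA1 libraries held it, and with PladB 0 of 2 and 1 of 2. Region 07 (37726278 to 37726679, 337.6 kb downstream) was held by 10 of the 12 libraries with Dox, with 8 to 12 reads. The 2 that lacked it were WX-02-23 replicate 2 and PladB replicate 1 of the WT-FOXA1 line.

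WX-02-23 in the WT-FOXA1 line with Dox gave 21 and 22 regions against 26 and 23 with DMSO, a difference of -3 (SE 1.58, exact permutation p = 0.333). With all lists at 1 length it was 1.5 regions, and the WX-02-23 lists were the shorter ones, at 62832 and 67815 peaks. It gained 1 region of 30, region 27, and lost none, where 1.31% and 11.7% of regions in the genome were gained and lost. In the C258A-FOXA1 line it gave 23 and 25 regions against 24 and 26, a difference of -1 (SE 1.41, exact permutation p = 0.667). Here it gained region 27 and lost 2 of 29 regions, where the genome had 2.37% and 2.55%. The WX-02-23 change in the number of regions differed between the lines by -2, with an exact permutation p of 0.556 over 36 arrangements of the line labels, and 0.0556 is the smallest this design allows. With lists at 1 length this value was 3.

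Weak peaks made up the 2 regions that C258A-FOXA1 cells lost with WX-02-23. Region 14 (37836973 to 37837193, 227.1 kb downstream) was held by the 2 C258A-FOXA1 DMSO libraries and no other library, with 10 reads in each. Region 42 (38245461 to 38245804, 181.1 kb upstream) had 8 and 10 reads there and 7 in C258A-FOXA1 PladB replicate 1. The lowest summits called anywhere in the C258A-FOXA1 lists had 5 or 6 reads.

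PladB at 100 nM in the WT-FOXA1 line gave 18 and 23 regions, -4 from DMSO (SE 2.92, exact permutation p = 0.667). It gained 0 and lost 1 of 30 regions, region 21, where 0.915% and 3.05% of regions in the genome were gained and lost. In the C258A-FOXA1 line it gave 21 and 20 regions, -4.5 from DMSO (SE 1.12, exact permutation p = 0.333). It gained 0 and lost 2 of 29, regions 14 and 34, where the genome had 0.806% and 4.67%. The C258A-FOXA1 PladB libraries were the shallowest of all, with a background of 0.546 and 0.587 reads per base, and the part of depth was not tested.

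Region 34 (38092676 to 38093097, 28.4 kb upstream) was held by all 15 parental libraries, with 9 to 22 reads (median 16). Of the engineered libraries 7 of 14 held it, with 7 to 11 reads (median 9), and none of the 4 PladB libraries did. Region 25 (38013658 to 38013953, 50.4 kb downstream), chosen after its values were seen, was held by all 15 parental libraries, with 15 to 34 reads, and by 2 of 14 engineered ones, WT-FOXA1 Dox DMSO replicate 2 with 18 reads and WT-FOXA1 without Dox replicate 1 with 21. Parental libraries alone held 10 regions of the locus (21.3%, against 25.2% in the genome) and engineered ones alone 13 (27.7%, against 18.5%).

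Among the remaining regions, region 37 and region 45 (55.2 and 231.7 kb upstream) were each missing from 1 library, C258A-FOXA1 Dox WX-02-23 replicate 1 and WT-FOXA1 without Dox replicate 2. Regions 05 and 06, a pair 348.1 and 346.7 kb downstream, were held by 27 and 25 libraries. The 6 regions held by 2 or more parental libraries alone had 7 to 39 reads, and the 8 held by 2 or more engineered libraries alone had 7 to 28. The 9 regions held by 1 library had 6 to 34 reads, with region 31 in the gene at the upper end, and a median percentile within their lists of 4.26.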

How the data were processed

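Libraries were prepared from a purchased ATAC-seq kit, per the labels. The submitters' processing notes list Bowtie2, MACS2 and hg19. Of tool versions, options and read shifting, nothing is stated in the sources used here. Lists were deposited by the authors as 1 per library, so replicates were not pooled. The authors deposited, per peak, a score (not used), the fold enrichment as a ratio over local background, the −log10 p and −log10 q, and, as the other value, the position of the summit within the peak, in the column order of the MACS2 peak format. The lowest deposited −log10 q was 2.00 and the narrowest peak 150 bp.

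Peaks on chromosomes 1 to 22, X and Y of all lists were merged where they overlapped or touched, and a library held a region when it had at least 1 bp of peak in it. Where a region had several peaks, the one with the highest −log10 p gave its values. Summit reads n and local background b were recovered from fold = (n + 1)/(b + 1) and the Poisson p, with a tolerance of 0.0001 in −log10 p, and 99.8% to 100.0% of peaks per list were resolved. They depend on the read extension of the authors, which is unknown. Presence was the one measure compared between libraries, by exact two-sided permutation tests over libraries with Benjamini-Hochberg adjustment. Counting and tests were tested on simulated data. Regions named in full overlap FOXA1 or lie within 1000 bp of its start, lead the regions held by all libraries (5), or were gained or lost in any of 10 comparisons. The members, lists and rules were chosen with earlier results of these data known. Alternatives were a −log10 q of at least 5, lists of equal length, 50% cover, windows of 100 bp each side of summits, regions per 10000 peaks, 1 library against the rule, a replicate block, and each library left out in turn. Region sequences and positions relative to exons were not analysed here. The software was scipy 1.17.1, numpy 2.4.6, matplotlib 3.10.9 and pandas 2.3.3 under Python 3.11.15.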

Additional observations from a re-analysis of the deposited data

How the results depend on the processing

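Peak lists limit all of these results: presence depends on depth, and 2 or 3 libraries per group allow no small p. Of the differences in the number of locus regions, 88 values under an alternative kept their sign, 11 became 0 and 11 reversed. The 88 include the replicate block in each of the 10 comparisons, which cannot change a difference. Of the gained and lost counts, 129 stayed within 1.5 times and 71 moved. Causes were not tested.

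With a −log10 q of at least 5, the difference in number became -1 for WX-02-23 against DMSO and -0.333 for WX-02-23 against WX-02-43. Gained counts became 0 in both and in WT-FOXA1 WX-02-23. Lost counts became 1 for PladB 10 nM, 1 for WX-02-23 against WX-02-43, 0 for WT-FOXA1 PladB, 1 for C258A-FOXA1 WX-02-23 and 1 for C258A-FOXA1 PladB, and the adjusted p of region 27 became 0.250 (exact permutation test, 4 of 7 libraries). With lists at 1 length, the differences became -0.333 for WX-02-23, 0.333 for WX-02-43, -1.33 between the stereoisomers and 1.5 for WT-FOXA1 WX-02-23, and the difference between the lines became 3. Gained counts became 0 between the stereoisomers, 1 for Dox and 2 for C258A-FOXA1 WX-02-23, lost counts became 1 in these 3 and 1 in C258A-FOXA1 PladB, and the adjusted p of region 27 was 0.384. With 50% cover, gained counts were 0 for WX-02-23 against DMSO, 1 for WX-02-43, 0 between the stereoisomers and 0 for WT-FOXA1 WX-02-23. Lost counts were 1 for PladB 100 nM, 1 between the stereoisomers and 1 for WT-FOXA1 WX-02-23, and the adjusted p of region 27 was 0.167. With windows around summits, WT-FOXA1 PladB gained 1 and lost 0 regions, the difference between the lines became 1, and the adjusted p of region 27 was 0.0491. Per 10000 peaks the differences were 0.0161 for WX-02-43, 0.0471 for PladB 100 nM, 0.471 for WT-FOXA1 WX-02-23 and -0.0901 for Dox.

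With 1 library allowed to go against the rule, gained counts rose to 2 for WX-02-23, 1 for WX-02-43, 2 between the stereoisomers, 2 for WT-FOXA1 WX-02-23, 2 for WT-FOXA1 PladB, 8 for Dox, 5 for C258A-FOXA1 WX-02-23 and 1 for C258A-FOXA1 PladB. Lost counts rose to 2 for WX-02-43, 2 for PladB 10 nM, 4 for PladB 100 nM, 1 between the stereoisomers, 9 for WT-FOXA1 WX-02-23, 9 for WT-FOXA1 PladB, 2 for Dox, 6 for C258A-FOXA1 WX-02-23 and 8 for C258A-FOXA1 PladB. Against DMSO libraries alone, an alternative added after seeing the data like all those of region 27, its adjusted p was 1 (exact permutation p 0.00278, the smallest that these libraries allow).

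Leaving out 1 library at a time, the difference in number ranged from 0 to 1.17 for WX-02-23, -1.33 to 0.667 for WX-02-43, -2.83 to -0.833 for PladB 10 nM, -2.83 to -1.33 for PladB 100 nM, 0 to 2 between the stereoisomers, -4.5 to -1.5 for WT-FOXA1 WX-02-23, -6.5 to -1.5 for WT-FOXA1 PladB, 3 to 6 for Dox, -2 to 0 for C258A-FOXA1 WX-02-23 and -5.5 to -3.5 for C258A-FOXA1 PladB, and the difference between the lines from -3.5 to -0.5. Gained counts ranged from 1 to 2 for WX-02-23, between the stereoisomers and for WT-FOXA1 WX-02-23, 0 to 1 for WX-02-43 and C258A-FOXA1 PladB, 0 to 2 for WT-FOXA1 PladB, 3 to 5 for Dox and 1 to 4 for C258A-FOXA1 WX-02-23. Lost counts ranged from 0 to 1 for WX-02-43, PladB 10 nM, PladB 100 nM, between the stereoisomers and for Dox, 1 to 3 for WT-FOXA1 WX-02-23, 1 to 4 for WT-FOXA1 PladB, 2 to 5 for C258A-FOXA1 WX-02-23 and 3 to 5 for C258A-FOXA1 PladB. The adjusted p of region 27 ranged from 0.0448 to 0.190, above the threshold in 15 of 27. In all 27 the region was held by every remaining WX-02-23 library and by no other, so its unadjusted p was the smallest possible.

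The replicate numbers showed no pairing of the libraries: same-numbered libraries deviated together with correlations of -0.0169 to 0.0158 over 25 pairs. These pairs are not all separate values. In groups of 2, both replicate numbers give the same correlation by construction, and several comparisons share a control group. A replicate block changes only the p and by construction leaves the differences as they were. These were 0.667 for WX-02-23, -0.333 for WX-02-43, -2 for both PladB doses and 1 between the stereoisomers. They were -3, -4 and 4.5 in the WT-FOXA1 line, and -1 and -4.5 in the C258A-FOXA1 line. The smallest exact p of the sign-flip test over blocks was 0.25.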

Other observations

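The values of 2 further regions, chosen after they were seen, are given here. Neither passed the test of presence: the adjusted p of the exact within-line permutation test was 1 for WX-02-23 and for PladB at 100 nM in both. Region 38 (38138467 to 38138710, 74.1 kb upstream of FOXA1) was held by 2 of 3 DMSO, 2 of 3 WX-02-23 and 3 of 3 WX-02-43 libraries of the parental cells. None of the 6 parental PladB libraries held it. The 1 of 14 engineered libraries that did was a PladB library of the C258A-FOXA1 line. Its parental peaks had 7 to 12 reads. The absence from parental PladB libraries could not be decided by the test of PladB at 100 nM. That test counted the libraries with PladB at 10 nM as controls.

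Region 29 (38040209 to 38040681, 23.6 kb downstream) lay between region 27 and the gene and was held by all 15 parental libraries. Its summit had 24, 26 and 24 reads with DMSO, 42, 28 and 37 with WX-02-23, and 22, 33 and 27 with WX-02-43. The WX-02-23 values were above the DMSO values and overlapped those of WX-02-43, at genome backgrounds of 0.923 to 1.12 reads per base with WX-02-23, 0.881 to 1.002 with DMSO and 0.966 to 1.502 with WX-02-43. In the engineered lines 10 of 14 libraries held it, with 13 to 24 reads, and neither C258A-FOXA1 PladB library did. The part of depth in these values was not tested. The test of presence could not address the parental reads, because all 15 parental libraries held the region.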
